A study of Homo sapiens with 6 samples.

Results

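The genes described here are 41 components of 4 DNA repair pathways, chosen by gene name from a table of 58735 genes: 18 genes of base excision repair, 5 of mismatch repair, 8 of nucleotide excision repair and 10 of non-homologous end joining. The list was fixed by name and does not hold every gene of these pathways. RNA-seq reads were counted per gene in 6 libraries of an RPE-1 line (immortalised human retinal pigment epithelial cells) that carries GFP-tagged CETN2 and a doxycycline-inducible PLK4 gene. 3 of the libraries came from cells given an siRNA against SON, a protein of nuclear speckles needed for the splicing of many transcripts (siSON, n = 3), and the other 3 from cells given a scramble siRNA (siControl, n = 3). Doxycycline at 1 µg/mL was given in both groups, so every value below was measured while PLK4 was induced. All libraries come from this 1 engineered line, and the labels do not say whether same-group libraries came from separate cultures, so p-values measure the spread between these libraries, which may be technical.

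Base excision repair removes single damaged or wrong bases: a DNA glycosylase cuts the base from the sugar, an endonuclease opens the strand, and a polymerase and a ligase fill and seal the gap. Nucleotide excision repair cuts out a short stretch around bulky damage, such as that made by ultraviolet light, and mismatch repair removes bases wrongly paired during replication. Non-homologous end joining rejoins broken double strands without a template and is the main route for such breaks outside S and G2 phase. These proteins are present in nearly all cycling and resting cells, and several are made mostly in S phase.

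Library totals ran from 54572365 to 69764836 counts. SON itself had 295.3, 312.7 and 283.9 CPM (counts scaled to a common library size) in the siControl libraries and 67.96, 69.96 and 65.00 CPM in the siSON libraries, each in the order of replicates 1 to 3, an order kept throughout, so 22.8% of the control level remained (log2 fold change -2.14, SE 0.06, edgeR adjusted p 6.78e-10; 2-sided exact permutation p = 0.1, the smallest that 3 libraries against 3 can give). Of 11 retinal pigment epithelium markers, 2 (TYR and DCT) had no counts in any library and RPE65, RLBP1 and TYRP1 were near 0, while PAX6, OTX2, MITF and BEST1 were called higher in siSON and PMEL and SERPINF1 lower (log2 fold changes -3.36 and -1.29). The summed level of the list, to which PAX6 added most (39.8 and 127 CPM), was 88.2 to 96.2 CPM in siControl and 193 to 224 CPM in siSON. KRT8 rose by 0.34 and KRT18 by 1.48 on the log2 scale, and CDH1 and EPCAM were near 0. The mesenchymal markers VIM and FN1 were abundant and not called, and COL1A1, COL1A2 and S100A4 fell (log2 fold changes -1.85, -0.71 and -1.35). Of the blood markers, CD3E had no counts, CD14 was near 0 and PTPRC was called lower, with 138, 71 and 92 counts in siControl and 18, 15 and 14 in siSON. A list of 15 genes that follow the share of cycling cells had 2 members called higher and 10 called lower after SON knockdown. Over all genes tested, 35.2% were called higher and 36.5% lower. The list did not move as 1: BUB1 and CCNB1 rose (log2 fold changes 0.74 and 0.18), and CCNE2 and E2F1 fell most (-4.49 and -2.22). Its summed level was 2360 to 2593 CPM in siControl and 1612 to 2205 CPM in siSON. In bulk RNA, fewer cells of a kind and less RNA per cell cannot be told apart. The part of this shift in the values below was not tested.

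All 41 genes passed the filter on low counts. By the level per kilobase of exon (RPKM, CPM divided by exonic length), the genes spanned a wide range in siControl. XRCC6, which encodes a subunit of the Ku ring that binds broken ends, stood first at 116 ± 4.33 RPKM (SD, n = 3), followed by APEX1 at 73.9 ± 4.16 RPKM, its partner subunit XRCC5 at 69.6 ± 2.59 RPKM and RAD23B at 49.6 ± 0.709 RPKM. By this length the APEX1 and XRCC5 levels did not differ beyond their spread, whereas XRCC6, XRCC5, RAD23B and MPG (28.7 ± 0.458 RPKM) each stood apart from the next gene down. The SDs cover the spread between libraries and not the choice of length, on which the order and the ranks depend. DDB1 has 13950 exonic bases, but 4506 in its transcript with the longest coding sequence. For RAD23B these lengths are 4615 and 4119. At the other end, NEIL1 had 0.208 ± 0.10 RPKM and NHEJ1 had 0.0872 ± 0.0124 RPKM. After SON knockdown XRCC6 still stood first at 193 RPKM, and XRCC1 moved from rank 9 at 15.1 RPKM to rank 31 at 1.66 RPKM.

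**Figure D1:**
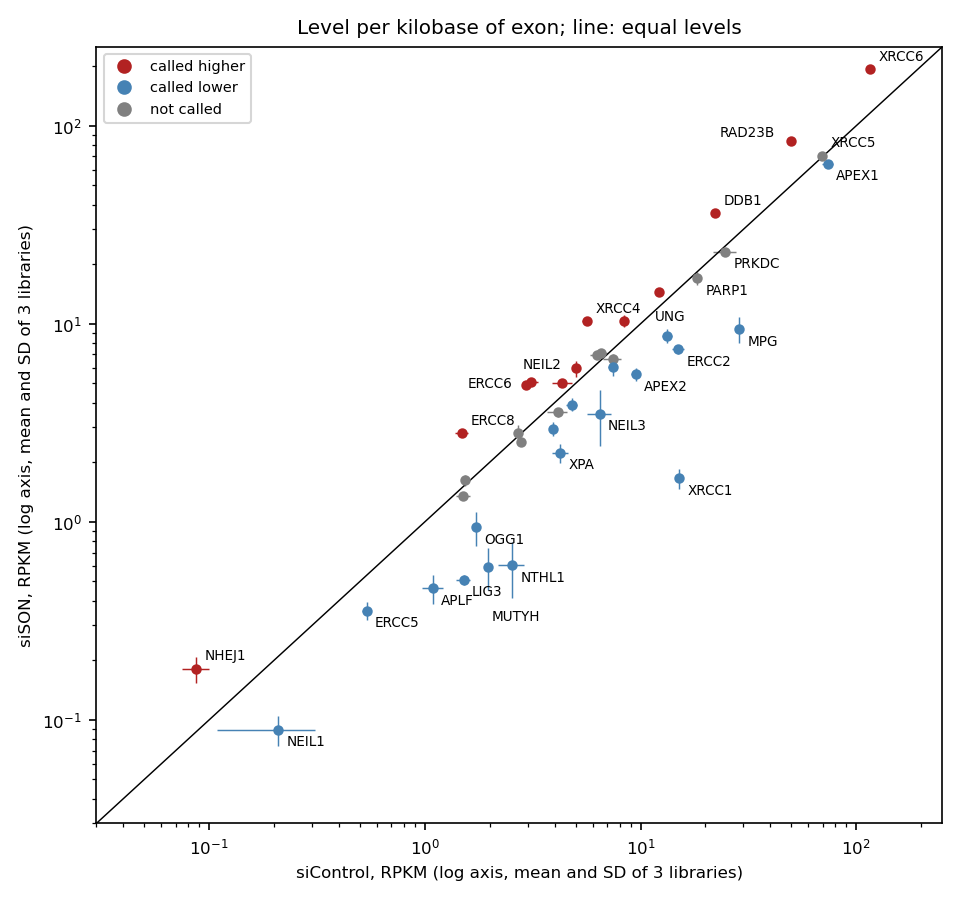
Level of each of the 41 repair genes per kilobase of exon in siControl (x axis, RPKM, log scale) and siSON (y axis, RPKM, log scale), as mean and SD of 3 libraries. The diagonal marks equal levels; XRCC1 lies farthest below it, and XRCC6, RAD23B and DDB1 lie above it among the abundant genes.

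After SON knockdown 30 of the 41 genes were called changed (adjusted p under 0.05 over all 16591 genes tested, edgeR quasi-likelihood test), 12 higher and 18 lower. This share is near the background, since 71.7% of all genes tested were called, 35.2% higher and 36.5% lower. With library size alone as the scaling, the split was 8 higher and 25 lower, and that scaling moved the log2 fold changes of all genes by a median of -0.20. Changes of at least 2-fold were called for 9 of the 41 (background 29.3%), 8 of them falls (20.5%) and 1 a rise (8.72%). At 1.5-fold or more, 8 were called higher (background 20.3%) and 14 lower (28.3%). The median log2 fold change was -0.16, beside -0.027 over all genes tested. The siSON and siControl libraries did not overlap for 32 of the 41, against 75.1% of all genes tested. Of the 30 calls, 23 held in every alternative in which the gene was tested, and the other 7 (MBD4, NEIL1, POLB, ERCC3, ERCC5, NHEJ1 and POLL) were lost in at least 1.

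**Figure D2:**
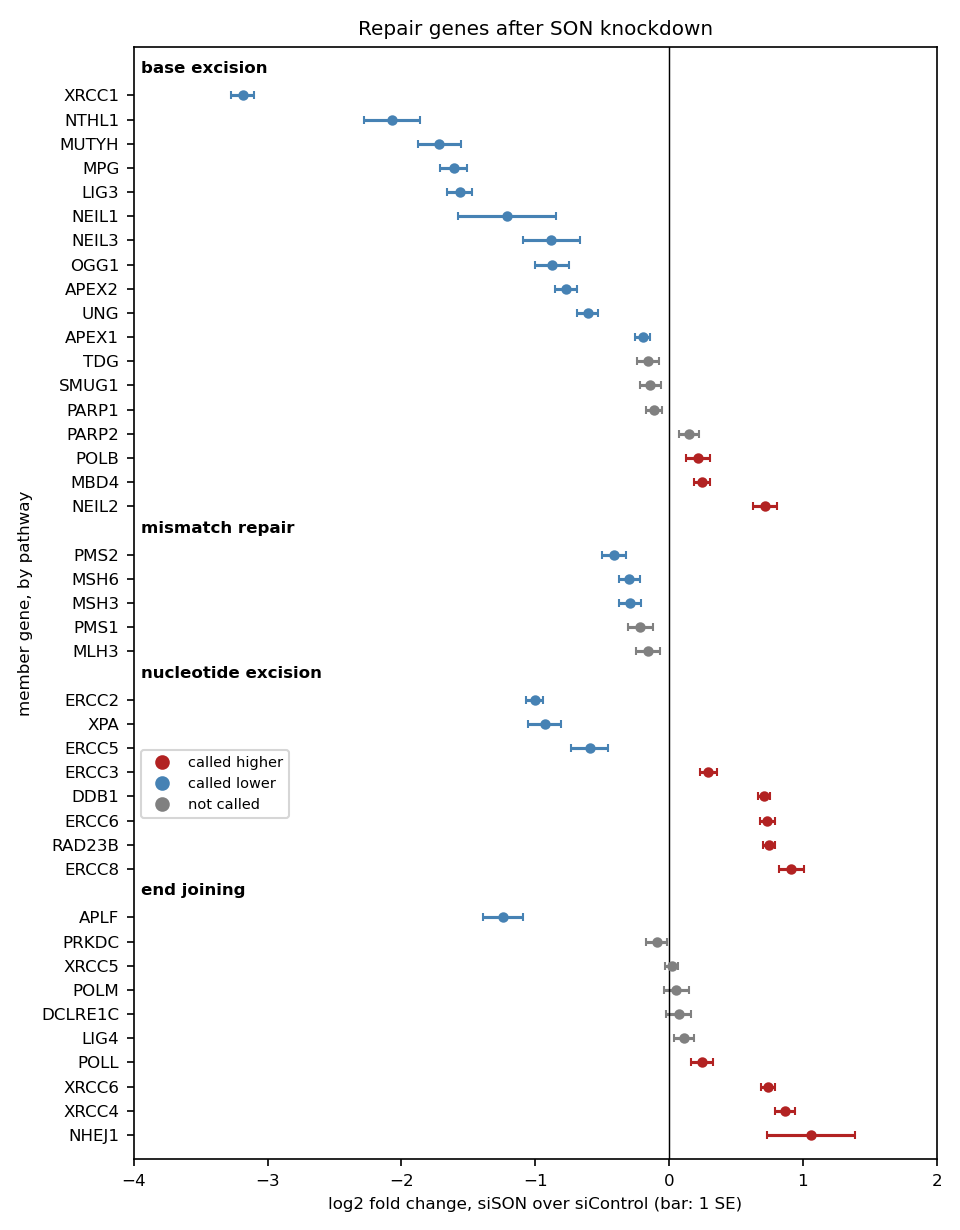
Log2 fold change (x axis, siSON over siControl) of each gene (y axis) by pathway, with 1 SE, coloured by the call at an adjusted p under 0.05. Base excision genes lie mostly left of 0, down to XRCC1 at -3.19; mismatch repair genes lie within -0.41 to -0.16; nucleotide excision genes fall into a lower and a higher group; most end joining genes lie near or above 0.

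Among genes with a single transcription start in the RefSeq promoter table, XRCC1 and LIG3 had the smallest adjusted p among the falls and DDB1 and XRCC6 among the rises, and the 150 bases before their starts are shown to set the promoters of genes that moved in opposite directions side by side. The sequences are RefSeq's for GRCh38.p14, read 5′ to 3′ along the gene: XRCC1 chr19:43575528-43575677 (minus strand), LIG3 chr17:34980362-34980511 (plus), DDB1 chr11:61333106-61333255 (minus) and XRCC6 chr22:41621145-41621294 (plus). Capitals mark matches, on either strand, to any of 4 motifs. The GC box was searched as GGGCGG. The box bound by the factor NF-Y was searched as CCAAT. The ETS-type site was searched as CCGGAAG. The E2F-type site was searched as TTTCCCGC.
XRCC1: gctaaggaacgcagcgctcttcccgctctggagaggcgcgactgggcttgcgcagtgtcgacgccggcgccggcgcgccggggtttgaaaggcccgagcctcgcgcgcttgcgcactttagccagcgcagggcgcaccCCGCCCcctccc
LIG3: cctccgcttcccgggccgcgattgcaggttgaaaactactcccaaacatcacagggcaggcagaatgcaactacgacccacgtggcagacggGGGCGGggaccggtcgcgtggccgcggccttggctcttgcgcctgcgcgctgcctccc
DDB1: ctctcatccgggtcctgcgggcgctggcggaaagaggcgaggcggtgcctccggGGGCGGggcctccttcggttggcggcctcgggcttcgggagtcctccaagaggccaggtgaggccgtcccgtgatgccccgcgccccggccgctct
XRCC6: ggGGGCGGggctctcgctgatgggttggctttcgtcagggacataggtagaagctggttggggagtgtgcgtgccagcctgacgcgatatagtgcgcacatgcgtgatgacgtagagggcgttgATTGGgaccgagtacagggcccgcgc
Each of the 4 windows held 1 GC box, XRCC6 also held 1 CCAAT match, none held the ETS-type or E2F-type letters, and no matches overlapped. GC content was 73.3% for XRCC1, 68.0% for LIG3, 75.3% for DDB1 and 62.7% for XRCC6. The table had entries for 36 of the 41 genes, with 55 starts, and the GC box occurred in 58.2% of these 55 windows, beside 36.8% of all 35116 windows of the same length. Median GC content was 66.7% in the 55 windows and 60.0% in all windows. The GC box was in 8 of 15 windows of genes called higher and in 19 of 27 windows of genes called lower, CCAAT in 4 and 10 of these, and the ETS-type site in 3 and 1. CCAAT occurred in 34.5% of the 55 windows and 23.5% of all windows, and CCGGAAG in 12.7% and 6.85%. TTTCCCGC was in none of the 55 and in 0.869% of all windows. NEIL2, POLB, PRKDC, SMUG1 and XRCC5 had no entry.

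Of the 18 base excision genes, 11 were called lower (background 36.5%) and 3 higher (35.2%), with a median log2 fold change of -0.69. The lowest fold change of the 41 genes was in the final ligation complex. XRCC1, the scaffold that holds the ligase and polymerase at the nick (ENSG00000073050; GRCh38 chromosome 19, 43543040 to 43580473, minus strand, 17 exons), was counted at 52.3, 52.6 and 52.0 CPM in siControl and at 6.03, 6.17 and 5.00 CPM in siSON. The siSON libraries all lay far below the controls, at 11.0% of the control mean (log2 fold change -3.19, SE 0.09, adjusted p 8.39e-10). LIG3, the ligase that XRCC1 binds (ENSG00000005156; chromosome 17, 34980494 to 35009743, plus strand, 20 exons), was counted at 20.8, 19.8 and 18.0 CPM in siControl and at 7.03, 6.46 and 6.30 CPM in siSON. Its 33.8% of the control mean equals -1.56 on the log2 scale (SE 0.09, adjusted p 7.31e-08), again with no overlap between groups. The ratio of XRCC1 to LIG3 per kilobase of exon, taken within each library so that no scaling enters it, went from 9.37, 9.94 and 10.8 to 3.20, 3.57 and 2.96, so the ratio was 3.10-fold lower in siSON. Of the genes that share exon positions with them, L34079.3 at the XRCC1 locus also fell, from 1.73 to 0.551 CPM, a small level beside that of XRCC1, whereas RFFL, opposite LIG3, rose (log2 fold change 0.44).

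The glycosylases differed among themselves. MPG, which removes alkylated adenine (ENSG00000103152; chromosome 16, 77007 to 85853, plus strand, 5 exons), was counted at 47.0, 47.6 and 48.5 CPM in siControl and at 13.01, 16.8 and 17.1 CPM in siSON. Its level fell to 32.8% (log2 fold change -1.61, SE 0.10, adjusted p 8.30e-08), while the opposite-strand gene NPRL3, whose exons overlap it, changed by -0.20. NTHL1, which acts on oxidised pyrimidines (ENSG00000065057; chromosome 16, 2039815 to 2047866, minus strand, 6 exons), went from 7.07, 5.99 and 5.41 CPM to 1.38, 1.05 and 1.97 CPM, 23.8% of control (log2 fold change -2.07, SE 0.21, adjusted p 4.05e-06). MUTYH, which removes adenine placed opposite oxidised guanine (ENSG00000132781; chromosome 1, 45329163 to 45340470, minus strand, 16 exons), went from 7.45, 7.83 and 7.66 CPM to 2.46, 2.79 and 1.71 CPM, 30.4% of control (log2 fold change -1.72, SE 0.16, adjusted p 2.53e-06). For both genes every siSON library lay below every control. Each shares exon positions with a gene on the other strand that also fell, TSC2 for NTHL1 (log2 fold change -1.68) and TOE1 for MUTYH (-1.44), and without a stated strand setting reads from such overlaps cannot be told apart.

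OGG1, the glycosylase for oxidised guanine itself (chromosome 3, 9749944 to 9788219, plus strand), had 14.7, 15.1 and 15.2 CPM in siControl and 6.48, 9.58 and 8.56 CPM in siSON (log2 fold change -0.87, SE 0.13, adjusted p 8.55e-05). It fell less than MUTYH, and the OGG1 to MUTYH ratio rose from 0.884, 0.863 and 0.889 to 1.18, 1.54 and 2.24. CAMK1 and TADA3, which share exon positions with OGG1 on the other strand, fell as well (log2 fold changes -2.34 and -0.50). UNG, which removes uracil (chromosome 12, 109097574 to 109110992, plus strand), had 36.0, 32.4 and 33.8 CPM in siControl and 20.4, 23.9 and 22.8 CPM in siSON (log2 fold change -0.61, SE 0.08, adjusted p 3.74e-05), with the groups apart. The other uracil and thymine glycosylases moved less: SMUG1 and TDG had log2 fold changes of -0.14 and -0.16 and were not called (95% intervals -0.32 to 0.03 and -0.34 to 0.03), and MBD4, which acts at thymine mispaired in CpG sites, rose by 0.25 on the log2 scale (adjusted p 0.00332), from 39.9, 42.8 and 40.1 CPM to 48.5, 48.3 and 48.8 CPM. With library size alone SMUG1 (-0.34, adjusted p 0.00310) and TDG (-0.36, adjusted p 0.00420) were called lower, as they were with a mean count of at least 50 (-0.20, adjusted p 0.0373, and -0.21, adjusted p 0.0350). Cyclic loess normalization, which fits a curve to the intensity dependence and moved the log2 fold changes of all genes by a median of 0.14, called TDG lower (-0.22, adjusted p 0.0312) and not SMUG1 (-0.035). TDG was called without siControl replicate 1 (log2 fold change -0.26, adjusted p 0.0104). The MBD4 rise was not past the threshold with library size alone (0.048, adjusted p 0.50) or under cyclic loess normalization (0.13, adjusted p 0.0685).

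The 3 NEIL glycosylases, which remove oxidised bases, did not move together. NEIL3, which is made in proliferating cells, had 16.4, 20.2 and 20.8 CPM in siControl and 6.74, 11.5 and 12.96 CPM in siSON (log2 fold change -0.88, SE 0.21, adjusted p 0.00449). The lowest siSON value was that of replicate 1, as for OGG1, UNG, MPG, MSH6 and ERCC2 among others, but not for XRCC1 or LIG3. That library also had the lowest summed level of the proliferation list, 1612 CPM. A link between these was not tested. NEIL2 rose from 9.44, 11.0 and 10.9 CPM to 17.6, 16.9 and 17.1 CPM, with all siSON libraries above all controls (log2 fold change 0.72, SE 0.09, adjusted p 2.21e-05). NEIL1 was thinly counted, with 147, 96 and 54 counts in siControl and 42, 32 and 26 counts in siSON. Its groups overlapped, the call (log2 fold change -1.21, SE 0.37, adjusted p 0.0114) was lost without siControl replicate 1 (-0.86, adjusted p 0.0522) and under cyclic loess normalization (-0.63, adjusted p 0.114), and MAN2C1, overlapping it on the opposite strand, fell by 1.13 on the log2 scale.

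The steps after base removal were split. APEX2, the minor abasic site endonuclease, had 32.5, 29.5 and 30.3 CPM in siControl and 16.9, 19.5 and 17.7 CPM in siSON (log2 fold change -0.77, SE 0.08, adjusted p 5.23e-06). APEX1, the main one, had 148, 134 and 136 CPM in siControl and 124, 121 and 119.8 CPM in siSON (log2 fold change -0.20, SE 0.06, adjusted p 0.00802), and its log2 fold change was -0.47 under cyclic loess normalization and -0.39 with library size alone. The APEX1 to APEX2 ratio rose from 7.85, 7.82 and 7.69 to 12.6, 10.7 and 11.6. PARP1 and PARP2 are the sensors that mark strand breaks with ADP-ribose chains. PARP1 had 129, 132 and 133 CPM in siControl and 112, 124 and 129.9 CPM in siSON, with overlapping groups. PARP2 had 26.5, 23.7 and 26.6 CPM in siControl and 27.3, 29.2 and 28.7 CPM in siSON, the siSON libraries just above the controls. Their log2 fold changes were -0.11 (95% interval -0.25 to 0.02) and 0.15 (-0.02 to 0.31), and neither was called. PARP1 was called lower with library size alone (-0.31, adjusted p 0.00138) and by cyclic loess (-0.38, adjusted p 0.000149), PARP2 was -0.049 with library size alone, and without siSON replicate 1 PARP2 was called higher (0.19, adjusted p 0.0446). POLB, the gap-filling polymerase, had 16.7, 16.7 and 19.9 CPM in siControl and 20.6, 20.2 and 21.2 CPM in siSON. Its rise (log2 fold change 0.22, adjusted p 0.0468) was at the threshold and lost its call in 8 of 14 alternatives. It was 0.018 with library size alone (adjusted p 0.865) and 0.16 with a mean count of at least 50 (adjusted p 0.118), and RLE factors and DESeq2 gave adjusted p of 0.0533 and 0.0635. It was also not called without siControl replicate 1 (0.15, adjusted p 0.212), without siControl replicate 2 (0.15, adjusted p 0.237), without siSON replicate 2 (0.24, adjusted p 0.0630) or without siSON replicate 3 (0.21, adjusted p 0.0978).

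**Figure D3:**
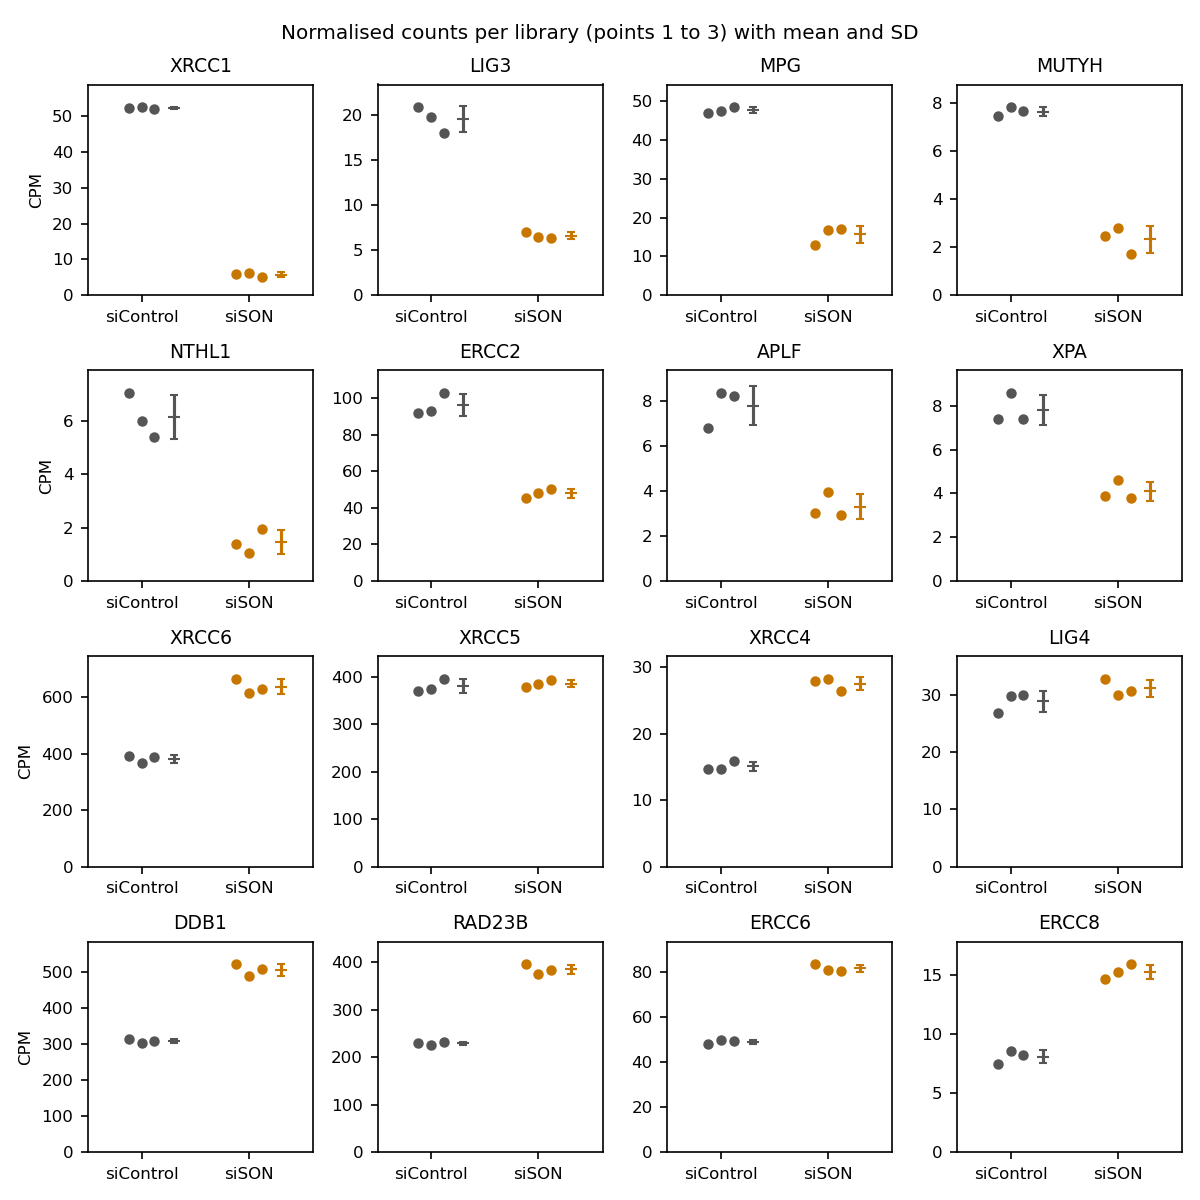
CPM in each library (points, replicates 1 to 3 from left to right) with mean and SD for 16 repair genes in siControl (grey) and siSON (orange); each y axis starts at 0. The siSON points lie below all controls for XRCC1, LIG3, MPG, MUTYH, NTHL1, ERCC2, APLF and XPA and above them for XRCC6, XRCC4, LIG4, DDB1, RAD23B, ERCC6 and ERCC8, while the XRCC5 points overlap.

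Mismatch repair genes changed by small amounts. Of 5 genes, 3 were called lower and none higher, beside 71.7% called over all genes, with log2 fold changes from -0.41 to -0.16. MSH6, which pairs with the common MutS subunit to find single mispairs (chromosome 2, 47695530 to 47810101, plus strand), had 77.8, 82.1 and 85.9 CPM in siControl and 58.9, 71.0 and 70.3 CPM in siSON (log2 fold change -0.30, SE 0.08, adjusted p 0.00501). MSH3, which finds small loops (chromosome 5, 80654648 to 80876460, plus strand), had 21.1, 23.3 and 23.2 CPM in siControl and 16.8, 19.4 and 19.0 CPM in siSON (log2 fold change -0.29, SE 0.08, adjusted p 0.00848). Both genes had siSON libraries below all controls, and both changed by -0.49 with library size alone. The MSH6 to MSH3 ratio did not separate the groups: it was 1.58, 1.51 and 1.58 in siControl and 1.499, 1.57 and 1.58 in siSON, a log2 change of -0.0060 (2-sided exact permutation p = 0.50, adjusted over 12 pairs 0.50). FBXO11, whose exons overlap MSH6 on the opposite strand, rose from 61.5 to 98.2 CPM.

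The MutL genes act after mismatch recognition. PMS2, the endonuclease subunit, had 14.9, 16.01 and 15.3 CPM in siControl and 10.5, 12.1 and 12.1 CPM in siSON (log2 fold change -0.41, SE 0.09, adjusted p 0.00147; -0.27 under cyclic loess normalization). PMS2 has 11 named pseudogene copies, of which PMS2CL and PMS2P1 had 6.48 and 6.43 CPM in siControl, so reads could be split between them and the PMS2 value is uncertain. PMS1, an accessory MutL subunit, had 19.9, 23.4 and 24.5 CPM in siControl and 18.5, 19.5 and 20.4 CPM in siSON, with overlapping groups. PMS1 and MLH3, the latter best known for its part in meiotic crossing over, were not called at log2 fold changes of -0.21 (95% interval -0.42 to -0.01) and -0.16 (-0.36 to 0.05). Without siControl replicate 1, which had the lowest control value for both, they were called lower (PMS1 -0.33, adjusted p 0.00562; MLH3 -0.24, adjusted p 0.0452). The missing calls did not depend on this library alone. PMS1 was called lower in 5 of 14 alternatives, and MLH3 was called or changed sign in 4 of 14. Their lowest log2 fold changes over the 14 alternatives were -0.41 and -0.35, below every value with 1 library omitted.

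All 8 nucleotide excision genes were called, 5 higher and 3 lower, beside a background of 71.7%. ERCC6 and ERCC8, the 2 genes among the 8 that are particular to transcription-coupled repair, both rose. UVSSA, a partner of theirs outside the 41, named here after its values were seen, had 10.9 CPM in siControl and 4.29 CPM in siSON and fell (log2 fold change -1.34, adjusted p 7.32e-06). Among further listed partners named in the same way, USP7 and ELOF1 rose (log2 fold changes 0.69 and 0.47), and XAB2 was not called (-0.076). ERCC6, the remodeller that senses a stalled RNA polymerase (ENSG00000225830; chromosome 10, 49455368 to 49539538, minus strand, 21 exons), was counted at 48.1, 49.7 and 49.6 CPM in siControl and at 83.4, 81.0 and 80.6 CPM in siSON (log2 fold change 0.73, SE 0.05, adjusted p 3.26e-07). ERCC8, the substrate receptor of the ubiquitin ligase that ERCC6 recruits (ENSG00000049167; chromosome 5, 60873831 to 60945073, minus strand, 12 exons), was counted at 7.47, 8.56 and 8.23 CPM in siControl and at 14.6, 15.2 and 15.9 CPM in siSON (log2 fold change 0.91, SE 0.09, adjusted p 3.84e-06). The ERCC6 to ERCC8 ratio changed by -0.18 on the log2 scale, less than either gene.

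DDB1, the adaptor of the same ubiquitin ligase and of the one that binds ultraviolet lesions (ENSG00000167986; chromosome 11, 61299451 to 61342596, minus strand, 27 exons), was counted at 315, 305 and 310.3 CPM in siControl and at 522, 490.2 and 508 CPM in siSON. RAD23B, which stabilises the lesion sensor (ENSG00000119318; chromosome 9, 107283137 to 107332194, plus strand, 10 exons), was counted at 230.3, 225 and 232 CPM in siControl and at 395, 375 and 383 CPM in siSON. These abundant genes rose by 0.71 and 0.75 on the log2 scale (SE 0.05 each, adjusted p 1.35e-07 and 8.57e-08), with narrow spread within each group. Both stayed called under cyclic loess normalization, at 0.33 and 0.39. TKFC, whose exons overlap DDB1 on the opposite strand, went the other way, with 17.5 ± 1.36 CPM in siControl and 3.63 ± 0.479 CPM in siSON (SD, n = 3 each).

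The 2 helicases of TFIIH, the complex that opens DNA around the lesion, moved in opposite directions. ERCC2 (ENSG00000104884; chromosome 19, 45349837 to 45370918, minus strand, 23 exons) was counted at 92.2, 93.1 and 103 CPM in siControl and at 45.5, 48.1 and 50.1 CPM in siSON, 49.8% of control (log2 fold change -1.01, SE 0.07, adjusted p 1.30e-07). ERCC3 (chromosome 2, 127257290 to 127294176, minus strand, 16 exons) was counted at 71.5, 69.4 and 72.0 CPM in siControl and at 93.9, 84.6 and 82.3 CPM in siSON (log2 fold change 0.29, SE 0.06, adjusted p 0.00130). The ERCC3 rise was not called with library size alone (0.096, adjusted p 0.176) or under cyclic loess normalization (0.083, adjusted p 0.264). The ratio of ERCC2 to ERCC3 needs no scaling: it was 1.68, 1.75 and 1.87 in siControl and 0.632, 0.742 and 0.794 in siSON, 2.46-fold lower with no overlap. Per kilobase of exon, ERCC2 thus stood above ERCC3 in every control library and below it in every siSON library. This order rests on exonic lengths of 6450 bases for ERCC2 and 8422 for ERCC3. The transcripts with the longest coding sequence have 4122 and 2787 bases, so which message was more abundant in siControl depends on the length used. The change in the ratio does not.

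XPA, the scaffold that checks the opened lesion (chromosome 9, 97674909 to 97697357, minus strand, 6 exons), was counted at 7.38, 8.59 and 7.40 CPM in siControl and at 3.89, 4.60 and 3.78 CPM in siSON (log2 fold change -0.93, SE 0.12, adjusted p 4.29e-05). ERCC5, the endonuclease that cuts on one side of it, had 4.67, 4.33 and 4.28 CPM in siControl and 2.62, 3.26 and 2.93 CPM in siSON (log2 fold change -0.59, SE 0.14, adjusted p 0.00219), and was not called under cyclic loess normalization (-0.24, adjusted p 0.122). ERCC5 shares exons with the read-through gene BIVM-ERCC5, listed at 0 counts in all 6 libraries, and with BIVM, which fell by 0.88 on the log2 scale, so its low level depends on how shared reads were assigned.

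Of the 10 end joining genes, 4 were called higher, 1 lower, and 5 were not called, beside 71.7% called over all genes. The Ku subunits, which act as a heterodimer, did not change alike. XRCC6 (ENSG00000196419; chromosome 22, 41621119 to 41664048, plus strand, 12 exons) was counted at 392, 365 and 387 CPM in siControl and at 665, 613 and 629 CPM in siSON (log2 fold change 0.74, SE 0.05, adjusted p 2.08e-07). XRCC5 (ENSG00000079246; chromosome 2, 216107464 to 216206303, plus strand, 23 exons) was counted at 369.7, 375 and 396 CPM in siControl and at 378, 386 and 393 CPM in siSON, with the groups overlapping (log2 fold change 0.02, 95% interval -0.08 to 0.13, adjusted p 0.717). Cyclic loess normalization gave lower values for both, XRCC6 at 0.35 (adjusted p 4.98e-05) and XRCC5 at -0.35 (adjusted p 3.75e-05), and with library size alone XRCC5 was -0.18 (adjusted p 0.00679). The ratio of XRCC5 to XRCC6 per kilobase was 0.568, 0.618 and 0.616 in siControl and 0.342, 0.379 and 0.376 in siSON, 1.64-fold lower, a value into which no library scaling enters. XRCC6 has 5 named pseudogenes, of which XRCC6P2 was the most counted at 0.460 CPM in siControl.

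XRCC4, the scaffold of the end-joining ligase (ENSG00000152422; chromosome 5, 83077498 to 83353787, plus strand, 8 exons), was counted at 14.7, 14.6 and 15.9 CPM in siControl and at 27.9, 28.25 and 26.3 CPM in siSON (log2 fold change 0.87, SE 0.07, adjusted p 1.19e-06). LIG4, the ligase it holds, had 26.7, 29.8 and 29.9 CPM in siControl and 32.8, 29.9 and 30.6 CPM in siSON and was not called although the siSON libraries lay just above the controls (log2 fold change 0.11, 95% interval -0.05 to 0.27; -0.087 with library size alone). The XRCC4 to LIG4 ratio per kilobase thus went from 0.904, 0.807 and 0.870 to 1.40, 1.55 and 1.41. XRCC1, the scaffold of single-strand break ligation, and XRCC4, that of double-strand break ligation, thus had log2 fold changes of opposite sign, -3.19 and 0.87. NHEJ1, a further scaffold of this ligase, had 18, 20 and 18 counts in siControl and 37, 30 and 24 counts in siSON. It was the single gene called at least 2-fold higher (log2 fold change 1.06, SE 0.33, adjusted p 0.0131), at a low depth, and without siSON replicate 1 it was not called (0.97, adjusted p 0.0509). AC068946.1 shares its exons on the same strand, and how reads in the overlap were assigned is not stated.

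The kinase and processing enzymes changed little. PRKDC, the DNA-dependent kinase that Ku recruits, had 429.6, 373 and 338 CPM in siControl and 342, 355 and 372 CPM in siSON. Its groups overlapped (log2 fold change -0.094, 95% interval -0.27 to 0.08), the controls spread more widely (SD 46.4 CPM) than the siSON libraries (SD 15.1 CPM), and it was called lower under cyclic loess normalization (-0.46, adjusted p 0.000313), with library size alone (-0.29, adjusted p 0.00611) and without siControl replicate 3 (-0.18, adjusted p 0.0394). POLM, a gap-filling polymerase, had 12.3, 11.95 and 12.1 CPM in siControl and 11.7 to 14.1 CPM across the siSON libraries, with overlap between the groups. POLM and DCLRE1C, the nuclease that PRKDC activates, were not called (log2 fold changes 0.05, 95% interval -0.15 to 0.26, and 0.07, -0.13 to 0.28). With library size alone they were -0.14 and -0.12, and DCLRE1C was called higher under cyclic loess normalization (0.28, adjusted p 0.0180). POLL, the related polymerase, had 26.1, 27.6 and 27.9 CPM in siControl and 35.5, 29.7 and 31.6 CPM in siSON (log2 fold change 0.25, SE 0.08, adjusted p 0.0160). This call was lost with library size alone (0.049, adjusted p 0.59), without siControl replicate 1 (0.19, adjusted p 0.0756) and without siControl replicate 2 (0.24, adjusted p 0.0580). APLF, an accessory factor that binds poly(ADP-ribose) and Ku (chromosome 2, 68467561 to 68655862, plus strand), was the exception: it had 6.78, 8.35 and 8.23 CPM in siControl and 3.02, 3.94 and 2.93 CPM in siSON, 42.3% of control (log2 fold change -1.24, SE 0.15, adjusted p 1.59e-05).

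In all, 12 pairs of members with paired or alternative roles were compared by their ratio within each library. For 10 of the 12 the groups did not overlap, each with a 2-sided exact permutation p of 0.1, the smallest possible, and 0.12 after adjustment over the pairs, so no pair could pass 0.05 by this test. Single genes alone did not overlap for 75.1% of those tested, and ratios of other gene pairs were not computed. The exceptions were MSH6 to MSH3 and POLL to POLM (2-sided exact permutation p = 0.40, adjusted 0.436). The POLL to POLM change of 0.19 on the log2 scale was 0.071 without siSON replicate 1 and 0.33 without siSON replicate 2. PMS2 to PMS1 and PARP1 to PARP2 changed by -0.20 and -0.26 on the log2 scale. NEIL1 to NEIL2 fell most, by 1.83 on the log2 scale, but its control values spread from 0.0321 to 0.108.

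**Figure D4:**
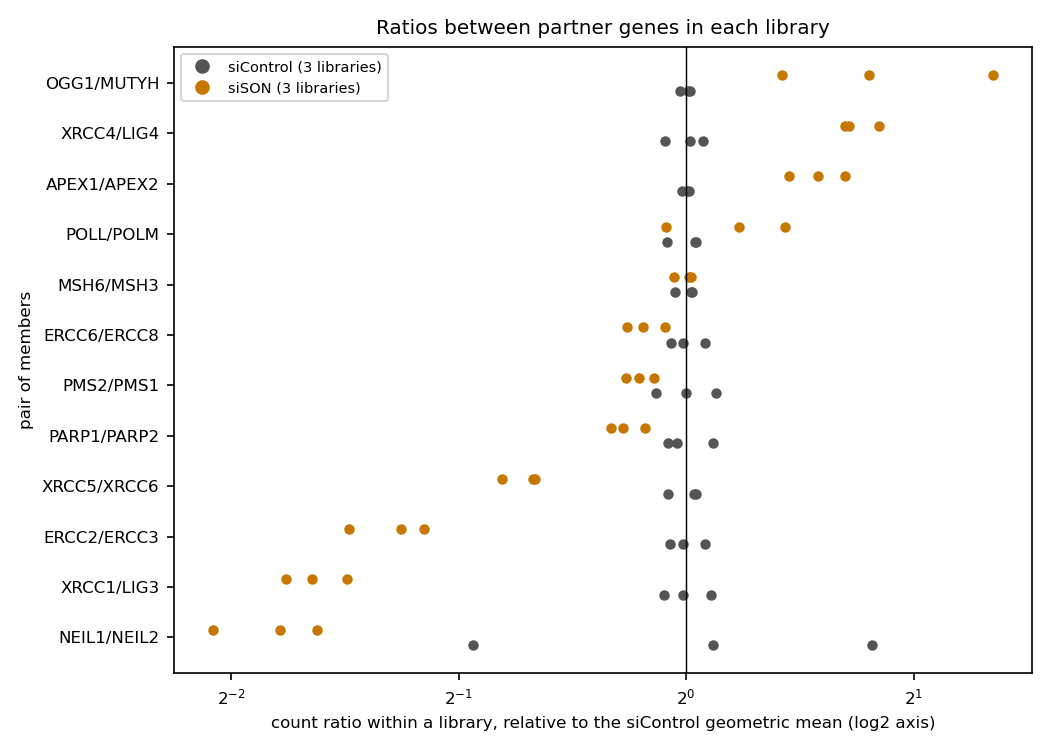
Count ratio of 2 genes per kilobase within each library (x axis, relative to the siControl geometric mean, log2 scale) for 12 pairs (y axis), 3 siControl libraries in grey and 3 siSON libraries in orange. XRCC1/LIG3, ERCC2/ERCC3 and XRCC5/XRCC6 lie left of all controls, OGG1/MUTYH, XRCC4/LIG4 and APEX1/APEX2 right of them, and MSH6/MSH3 overlaps.

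Proteins that work with these genes were counted in lists written from general knowledge. Of the base excision partners, 4 of 18 tested were called higher and 11 lower; of the nucleotide excision partners, 12 of 24 and 7 of 24; of the mismatch repair partners, 3 of 17 and 9 of 17; and of the end joining partners, 6 of 17 and 5 of 17. The called shares of these lists, 83.3%, 79.2%, 70.6% and 64.7%, lay around the 71.7% over all genes tested (35.2% higher, 36.5% lower). Without siControl replicate 2 the base excision partners had 2 called higher, and with library size alone the splits were 2 and 13, 7 and 9, 2 and 14, and 5 and 7. The 3 smallest adjusted p in both the base excision and the mismatch list belonged to replication enzymes that also fill and seal repair gaps. POLD2 and POLD1, subunits of DNA polymerase delta, averaged 112 ± 1.54 and 51.4 ± 1.80 CPM in siControl (SD, n = 3) and fell to 23.4 ± 1.46 and 10.6 ± 2.20 CPM in siSON (n = 3), at log2 fold changes of -2.25 and -2.28 and adjusted p of 8.39e-10 and 5.35e-08. LIG1, the replicative ligase that also seals the long-patch route of base excision repair, averaged 109 ± 3.42 CPM in siControl and fell to 13.4 ± 3.35 CPM in siSON (log2 fold change -3.04, adjusted p 7.77e-08).

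In the nucleotide excision list, GTF2H3, a further TFIIH subunit, fell with ERCC2 (log2 fold change -1.64, adjusted p 2.47e-08), and CUL4A, the cullin of the DDB1 ligase, rose with DDB1 (log2 fold change 0.92, adjusted p 3.52e-08). Other members of these complexes, chosen after their values were seen, moved in both directions or were not called. The TFIIH genes GTF2H1, CCNH, CDK7 and MNAT1 rose (log2 fold changes 0.88, 0.76, 0.32 and 0.26), and GTF2H2, GTF2H4 and GTF2H5 were not called (-0.080, 0.82 and 0.064). GTF2H4 was thinly counted, with 21, 12 and 26 counts in siControl and 30, 30 and 20 counts in siSON (SE 0.36, adjusted p 0.0624). By CPM its siSON libraries all lay above the controls. CUL4B and RBX1, listed for the same ligase, rose with DDB1 (log2 fold changes 0.53 and 0.20, adjusted p 4.33e-06 and 0.0187). DDB2, the lesion-binding partner of DDB1, fell by 1.75 on the log2 scale (adjusted p 6.37e-08). XPC, the lesion sensor that RAD23B stabilises, was also chosen after its values were seen. It averaged 148.8 CPM in siControl and 73.6 CPM in siSON (log2 fold change -1.01, adjusted p 6.04e-08), opposite in direction to RAD23B. In the end joining list TDP1 and RIF1 fell by 1.01 and 1.05 on the log2 scale (adjusted p 2.52e-06 and 2.65e-06), and APTX, which repairs failed ligation ends, rose by 0.70 (adjusted p 3.30e-06).

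Gene structure was compared as a description, since genes are not independent replicates. Transcripts of the genes called lower had a median GC content of 50.6% (18 genes), and those called higher 45.9% (12 genes), beside 53.8% and 47.6% for all protein-coding genes called lower and higher. The Spearman correlation of GC content with the log2 fold change was -0.32 across the 41 genes and -0.21 across 13003 protein-coding genes. That of the median intron length was 0.28 and 0.25, and that of the mean CPM was 0.34 and 0.33. Across the 41 genes it was 0.017 for the number of exons and 0.012 for the transcript length. Of the 24 genes that share exon positions with another annotated gene, 19 were called, and of the 17 that share none, 11, beside 71.7% of all genes tested.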

How the data were processed

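Counts were analysed for 41 repair genes in 6 libraries, 3 siSON and 3 siControl. The authors deposited raw read counts per gene, 1 column per library, not normalized and not pooled. The submitters' processing notes name cutadapt 1.16, STAR 2.5.2a, featureCounts 1.6.2, DESeq2 1.28.1 and the build hg38. Which annotation release was used, whether strand was used in counting and how shared reads were handled are not given in the sources used here. All 58735 gene identifiers are in GENCODE release 29 (GRCh38), which supplied positions, exon numbers (of the transcript with the longest coding sequence), GC content and exonic lengths.

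Genes were kept with filterByExpr (minimum count 10), scaled by TMM and compared with edgeR 4.0.16 (robust quasi-likelihood test, R 4.3.3, group alone), adjusted by Benjamini-Hochberg over 16591 genes and called at an adjusted p under 0.05; the fit was tested on simulated data. CPM, RPKM and ratios within a library were computed from the counts. Since PCR copies were not told apart by molecular identifiers, the floor of 3 counts, equal to 0.0402 to 0.0590 CPM, covers counting error only. The intervals of the fold changes come from the quasi-likelihood fit and also include the spread between libraries. Alternatives were DESeq2 1.42.0, limma 3.58.1 (voom, and cyclic loess with limma-trend), RLE factors, library size alone, 2 count filters, the replicate block and the omission of each library. Each member may be named; values per library are given for members called at 1.5-fold or more and for members of the pairs, and the 3 partner genes with the smallest adjusted p are named per list, except 1 that is not reported here. Members and lists were chosen with earlier results of these data known.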

Additional observations from a re-analysis of the deposited data

How the results depend on the processing

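The number of the 41 genes called (30) ranged from 28 to 33 over 14 alternatives, those called higher (12) from 8 to 12, those called lower (18) from 18 to 25 and those called with a change of at least 2-fold (9) from 7 to 11. With 1 library omitted at a time they were 28 to 31, 10 to 12, 18 to 20 and 7 to 10. The median log2 fold change of the members, -0.16, was -0.35 with library size alone and -0.24 under cyclic loess normalization. Signs changed for genes near 0. With library size alone PARP2 was -0.049, XRCC5 -0.18, LIG4 -0.087, DCLRE1C -0.12 and POLM -0.14. Under cyclic loess normalization MLH3 was 0.016 and XRCC5 -0.35. With a mean count of at least 50 XRCC5 was -0.037 and POLM -0.0020. With 1 library omitted XRCC5 ran from -0.025 (without siControl replicate 1; -0.010 without siControl replicate 2) to 0.048 and POLM from -0.019 (without siSON replicate 2) to 0.12. The cause was not tested.

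Base excision partners called higher (4) numbered 2 with library size alone and 2 with a mean count of at least 50, and 2 to 3 with 1 library left out. Nucleotide excision partners called higher (12) numbered 7 and mismatch repair partners called lower (9) numbered 14 with library size alone. Proliferation genes called higher (2) numbered 1 with library size alone, cyclic loess, DESeq2 or a mean count of at least 50, and 1 to 2 with 1 library left out. The number of genes called in the whole table (11888) ranged from 10226 to 12604.

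The replicate numbers are shared by both groups, but what they stand for is not stated. Deviations from the group means correlated at 0.194, 0.0461 and 0.118 for same-numbered libraries, not all over 0.1, and every library correlated best with its own number. With the replicate block 33 of the 41 genes were called, 12 higher and 21 lower (12313 in the whole table), all 30 calls were kept, and TDG (-0.15, adjusted p 0.0331), PARP1 (-0.11, adjusted p 0.0454) and PMS1 (-0.21, adjusted p 0.0187) were added. Depth limits NHEJ1 and NEIL1, at 18 to 147 counts a library.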

Other observations

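MSH4, a MutS homologue that acts in meiotic crossing over, was chosen after its values were seen. It had 0.150 ± 0.0473 CPM in siControl and 1.96 ± 1.00 CPM in siSON (SD, n = 3 each; log2 fold change 3.71, SE 0.42, edgeR adjusted p 1.15e-05), the largest rise among the partner genes tested, at low counts. MGMT, which removes alkyl groups from guanine without excision, and DNTT, the lymphoid polymerase of end joining, had no counts in any of the 6 libraries.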
